A study of Sus scrofa with 48 samples.

Results

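Expression in perirenal adipose tissue (PRAT), which surrounds the kidneys, was compared between HF and LF pigs of the low residual feed intake (RFI) line. RFI is the feed an animal eats beyond what its growth and maintenance predict, so a low RFI pig is an efficient one. The 24 low RFI pigs were those whose sample titles carried HF RFIneg (12 pigs) or LF RFIneg (12 pigs), out of 48 pigs in the series. The other 24 pigs (12 HF and 12 LF) came from the high RFI line. They entered the same limma fit, so they helped to set the probe filter and the spread behind every error and p-value below, and they served to ask whether a difference was shared. All pigs were pure Large White barrows and 132 days old per the labels. The HF pigs had free access to a diet rich in fat and fiber, and the LF pigs to a diet that the labels call low in fat and fiber and the study's methods call low-fat high-starch. The diets differed in fat, starch and fiber together, so a difference between them cannot be assigned to any of these nutrients. The paper also reports that HF pigs ate less, ended lighter and had relatively less perirenal fat than LF pigs. Any part of these in the differences was not tested. Each pig gave RNA to 1 one-colour array, and each group comes from a selected line, so a result describes that line.

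White fat stores energy by routes that draw on different nutrients. Glucose can be taken up, passed through glycolysis and pyruvate dehydrogenase to citrate, and rebuilt into fatty acids in the cytosol by ATP citrate lyase, acetyl-CoA carboxylase and fatty acid synthase, with NADPH from malic enzyme and the pentose phosphate pathway. Fatty acids from the diet can instead be taken up ready-made and esterified. In pigs, adipose tissue is the main site of fatty acid synthesis. The glucose-sensing factor encoded by MLXIPL and the insulin-responsive factor encoded by SREBF1 drive the genes of the synthetic route.

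Some probes carry the findings below and are printed 5′ to 3′ as designed. Several genes have many probes, and these are not always separate readings. The 2 probes of PTGDS have the same sequence, so they count as 1 sequence read on 2 spots. FBXO32 has 5 probes of 5 different sequences, of which 1 is shown. FASN has 5 probes of 4 sequences, and the sequence that is read on 2 spots is shown.
PTGDS: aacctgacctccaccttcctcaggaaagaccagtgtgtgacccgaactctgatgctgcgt
FBXO32: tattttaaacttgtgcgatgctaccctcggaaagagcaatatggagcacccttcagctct
FASN, on 2 spots: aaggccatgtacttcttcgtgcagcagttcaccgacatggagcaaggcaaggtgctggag

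The arrays of the low RFI pigs overlapped in signal between diets, with HF arrays brighter at the median. Median intensity per array lay between 120.75 and 178 in HF pigs (median 150) and between 115 and 156 in LF pigs (median 136). Centring each array on its median takes this difference out. Between 41703 and 46802 probes per array were well above background, and 0 spots were saturated. Every one of 6 slides held 2 arrays of each group, and each of 2 scan days held 6. Values are log2 of the median spot intensity minus the median of that array, so they are relative to the median probe of the array and can be negative. A gene was read on its brightest probe, and differences are HF minus LF on the log2 scale. A gene was called at a raw p under 0.01, a fold over 1.1 and a Benjamini-Hochberg (BH) adjusted p under 0.08 in limma, which are the thresholds of the study's methods. All adjusted p-values are from this limma fit over all genes. The number of arrays limits the precision.

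The tissue label was checked against markers. The adipocyte markers ADIPOQ, PLIN1, LEP, FABP4, CIDEC, LIPE, PPARG, LPL and CFD were all well above background on all 48 arrays. Their summed level relative to the array median lay between 5617 and 6912 in HF pigs and between 5669 and 7267 in LF pigs. Averaged over the 9 markers, the log2 level of LF pigs was 8.86 ± 0.14 (SD, n = 12). That of HF pigs was 8.69 ± 0.097 (SD, n = 12), with all 12 below the LF mean. The median difference of the 9 was -0.15, and 0.0026 with spike-in centring. LEP and FABP4 fell, CFD rose and the other 6 did not pass the test, whereas 10.1% of all genes fell and 3.34% rose. The part of this shift in the differences of other adipocyte genes was not tested. In bulk tissue, fewer cells of a type and less RNA per cell cannot be told apart. Of 7 kidney markers on the array only AQP2, a water channel, was well above background on enough arrays to be tested, and it fell by 0.68 (SE 0.18, adjusted p = 0.0134). Of 7 adrenal markers on the array 5 were tested, with summed levels of 3.71 to 11.5 in HF pigs and 3.98 to 14.6 in LF pigs.

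In the low RFI line, diet changed 1453 of 10828 genes (13.4%). Of these, 362 rose under the HF diet (3.34% of genes tested) and 1091 fell (10.1%). At probe level 5458 of 43355 probes were called (12.6%), of which 1941 rose (4.48%) and 3517 fell (8.11%). A raw p under 0.05 alone was met by 25.7% of probes and 27.0% of genes, and one under 0.01 by 12.7% and 13.5%. Most differences were small, since the median size over called genes was 0.28 and 21 called genes differed by over 2-fold. All 1453 called genes had the same sign on both scan days, and 1133 had it on all 6 slides. The calls were made on these same arrays, so this agreement is largely built in. The groups did not overlap at all in only 6 genes (0.0554%), which were named after their values were seen: LDHD, PI4KA, CCT8, CDK2AP1, YWHAG and c9orf5, all lower in HF pigs.

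How many genes rose and how many fell depended on how the arrays were scaled. With arrays centred on their own median, 75.1% of called genes were lower under HF. With quantile normalization this share was 58.3%, with normexp background correction and quantile normalization 58.0%, and with arrays centred on the spike-in control probes 5.74%. At probe level the share moved from 64.4% to 53.5% with the processed signal scaled on its 75th percentile, to 49.6% with either quantile setting and to 4.19% with spike-in centring. Spike-in centring adds 0.16 to every difference, which moves the median over all genes from -0.04 to 0.11. All directions given here are therefore relative to the array median, and a fall smaller than 0.16 becomes a rise against the spike-ins. Of the called genes named here, those called in at most 2 of the 5 other scalings were FABP4, SLC2A4, PDHX, AGPAT3, MGLL, ECI2, ETFA, ADIPOR1, UGP2, HSPH1, HSPB1, CD59 and SUB1.

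**Figure D1:**
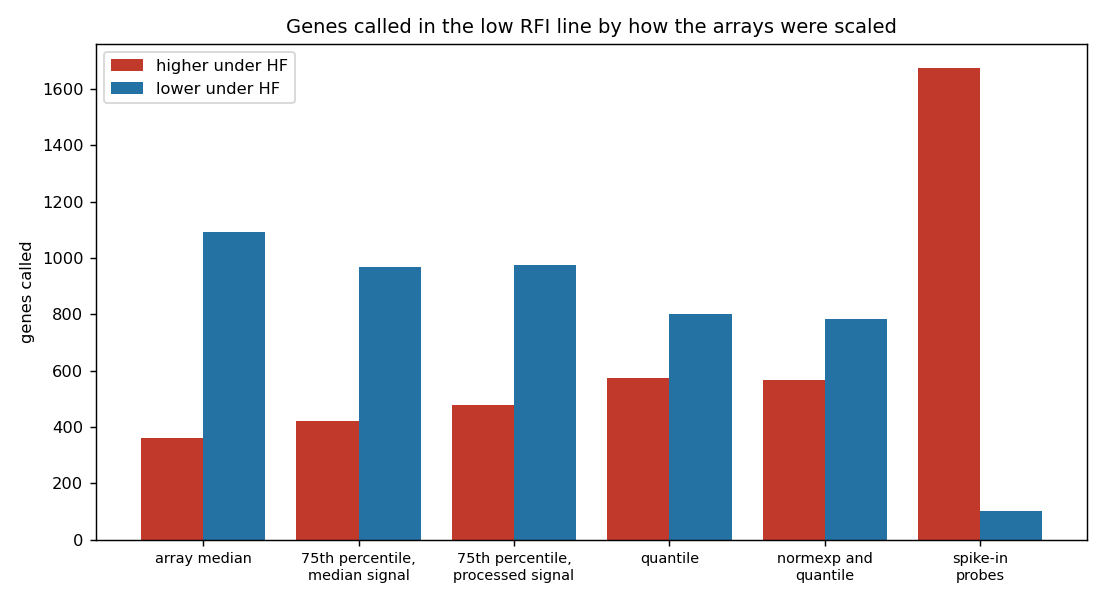
Bars give the number of genes called higher (red) and lower (blue) in HF than in LF low RFI pigs under 6 ways of scaling the arrays, on an axis that starts at 0. Falls outnumber rises (1091 against 362) with array median centring, and rises outnumber falls (1676 against 102) with spike-in centring.

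The largest fall was that of PTGDS, which encodes prostaglandin D2 synthase. Its level ran from 4.17 through a median of 5.73 to 7.26 in LF pigs and from 1.62 through 2.70 to 4.92 in HF pigs. All 12 HF pigs were below the LF mean and 9 were below every LF pig. The fall was 2.64 (SE 0.45), or 6.25-fold (adjusted p = 0.000324). SULT2A1, a sulfotransferase of steroids and bile acids, ran from 2.57 through 3.26 to 4.17 in LF pigs and from -1.55 through 1.69 to 2.85 in HF pigs. The groups overlapped slightly, with 10 HF pigs below every LF pig, and the fall was 1.96 (SE 0.37, adjusted p = 0.00107). SULT2A1 is strongly expressed in adrenal tissue, and of the 5 adrenal markers tested 0 were called, against 13.4% of all genes. For so few markers this count is near that share. Of these 5, 3 were well above background on all 48 arrays. Any part of adrenal tissue in the fall was not tested. LCN2, the iron-siderophore carrier lipocalin 2, fell by 1.61 (SE 0.34, adjusted p = 0.00312), and its 3 probes share 1 sequence.

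The other genes among the 8 largest falls were mostly of carbohydrate and lipid metabolism. PNPLA3, a lipid droplet protein of the patatin family induced by carbohydrate feeding, ran from 5.26 through 6.29 to 6.98 in LF pigs and from 4.11 through 4.58 to 6.82 in HF pigs. Its HF pigs were mostly low, 8 of them below every LF pig and 1 above the LF mean, and PNPLA3 fell by 1.33 (SE 0.29, adjusted p = 0.00379). The difference was -0.67 within the first scan day and -1.996 within the second. LDHD, the mitochondrial D-lactate dehydrogenase, separated the groups completely, from 3.08 to 4.18 in LF pigs and from 1.66 to 2.91 in HF pigs. It fell by 1.29 (SE 0.18, adjusted p = 1.99e-05). SLC2A5, the fructose transporter, fell by 1.16 (SE 0.19, adjusted p = 0.000298), and 10 of 12 HF pigs were below every LF pig.

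Among the 8 largest rises, CLDN4, a tight junction protein of epithelia, was widely spread. It ran from -0.46 through 0.99 to 1.86 in LF pigs and from 0.54 through 2.67 to 5.999 in HF pigs. The rise of 1.72 (SE 0.58, adjusted p = 0.0472) came with overlapping groups, and 7 HF pigs were above every LF pig. The other CLDN4 probe gave 0.80 and was also called. RBP5, a cellular retinol-binding protein, ran from 0.70 through 2.90 to 4.39 in LF pigs and from 2.62 through 4.57 to 5.67 in HF pigs. Its 3 probes, 2 of which overlap by 33 bases, gave rises of 1.54 to 1.66 (on the brightest probe, SE 0.43, adjusted p = 0.0123). PCK1, the cytosolic phosphoenolpyruvate carboxykinase that supplies glycerol 3-phosphate for esterification in fat cells, rose by 1.55 (SE 0.50, adjusted p = 0.0391), from a LF median of 5.66 to a HF median of 7.46.

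POSTN, a matrix protein laid down in remodelling tissue, rose by 1.06 (SE 0.37, adjusted p = 0.058). CYP27A1, the mitochondrial sterol 27-hydroxylase, rose by 1.02 (SE 0.35, adjusted p = 0.055) on its brightest probe. Its other 2 probes gave 1.03, which was called, and 0.44, which was not. SPEF2, a sperm flagellum protein, rose by 0.94 (SE 0.19, adjusted p = 0.00179) on its brightest probe, against 0.05 and 0.31 on its other 2 probes. All 12 HF pigs were above the LF mean for CYP27A1 and SPEF2. POSTN and CYP27A1 were close to the threshold, since neither was called at a BH adjusted p under 0.05.

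**Figure D2:**
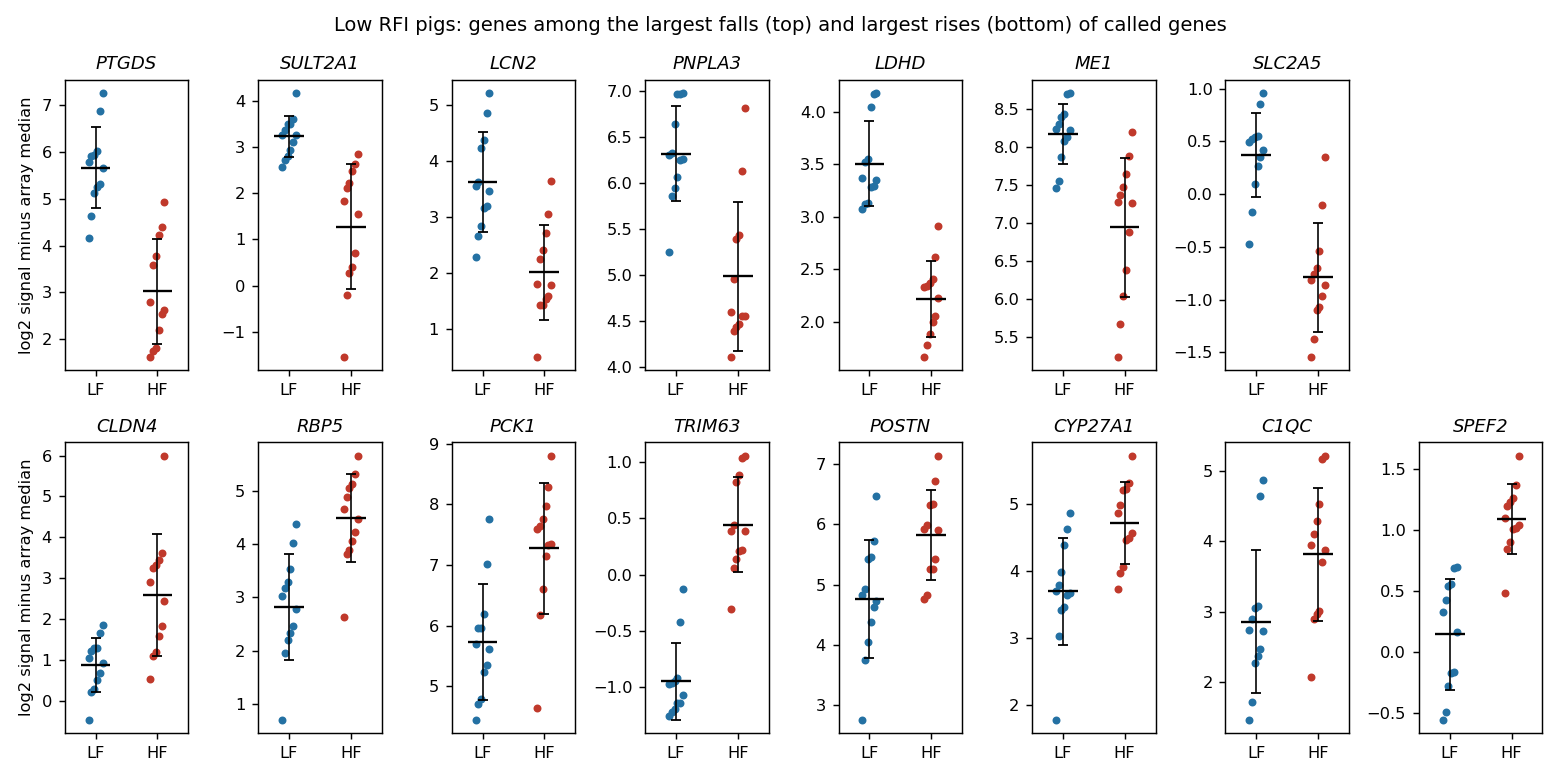
Each panel plots 1 gene in the 12 LF (blue) and 12 HF (red) low RFI pigs as log2 signal minus the array median, with 1 point per pig, a bar at the mean and whiskers of 1 SD. The top row holds 7 genes among the largest falls and the bottom row the 8 largest rises; of these only LDHD has no overlap between the groups.

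The genes of fatty acid synthesis and NADPH supply fell together. Of 17 tested, 11 fell and 0 rose, against 10.1% and 3.34% of all genes. Their median difference was -0.43 against -0.04 over all genes. ME1, malic enzyme, ran from 7.46 through 8.23 to 8.71 in LF pigs and from 5.24 through 7.27 to 8.20 in HF pigs. Of the HF pigs 8 were below every LF pig, and the fall was 1.23 (SE 0.28, adjusted p = 0.00476), or 2.34-fold. ACLY, ATP citrate lyase, fell by 1.01 (SE 0.23, adjusted p = 0.00521) and ACACA, acetyl-CoA carboxylase, by 0.96 (SE 0.21, adjusted p = 0.00418). SCD, the desaturase that makes oleate, ran from 10.4 through 10.9 to 11.3 in LF pigs and from 8.87 through 10.1 to 10.8 in HF pigs. All 11 SCD probes fell, by 0.85 (SE 0.21, adjusted p = 0.00849) on the brightest. ELOVL6 fell by 0.92, ACSS2 by 0.79, ELOVL5 by 0.45, PGD by 0.43, TKT by 0.33 and IDH1 by 0.31. ACACB (-0.03), FADS1 (-0.02) and FADS2 (-0.16) were not called. With spike-in centring 6 of the 17 were called lower.

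For FASN, fatty acid synthase, the size of the fall depended on the probe. Its brightest probe ran from 10.9 through 11.1 to 11.4 in LF pigs and from 10.3 through 10.9 to 11.1 in HF pigs, a fall of 0.31 (SE 0.07, adjusted p = 0.00771). The sequence printed on 2 spots gave falls of 0.74 (SE 0.19) and 0.72 (SE 0.19). The brightest FASN probe was not called with spike-in centring.

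Genes upstream of fatty acid synthesis fell as well. Of 17 genes of glucose entry and glycolysis 9 fell and 0 rose, against 10.1% and 3.34% of all genes. Their median was -0.34. HK2, the insulin-regulated hexokinase, ran from 6.30 through 6.74 to 7.75 in LF pigs and from 5.27 through 5.97 to 6.88 in HF pigs. Of 12 HF pigs 10 were below every LF pig, and HK2 fell by 0.81 (SE 0.19, adjusted p = 0.00521). SLC2A4, the insulin-regulated glucose transporter, fell by 0.73 (SE 0.25, adjusted p = 0.0546) on 1 of its 4 probes, GAPDH by 0.41 (SE 0.09, adjusted p = 0.00521) and PGAM1 by 0.38 (SE 0.10, adjusted p = 0.0125). HK1, PFKM, ALDOA, PGK1 and ENO1 also fell. SLC2A1 (0.03) and LDHB (-0.0039) were not called. With spike-in centring only 1 of the 17 was called.

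The pyruvate dehydrogenase complex, which turns pyruvate into acetyl-CoA, had 5 subunits tested, of which all were called lower. DLAT, its E2 subunit, ran from 5.29 through 5.56 to 6.28 in LF pigs and from 4.42 through 4.79 to 5.48 in HF pigs, and 11 of 12 HF pigs were below every LF pig. It fell by 0.73 (SE 0.13, adjusted p = 0.000673). PDHB fell by 0.72 (SE 0.18, adjusted p = 0.00997), PDHA1 by 0.48 (SE 0.10, adjusted p = 0.00333), DLD by 0.39 (SE 0.09, adjusted p = 0.00521) and PDHX by 0.25 (SE 0.09, adjusted p = 0.0656). The call of PDHX held in 1 of the 5 other scalings. CS, citrate synthase, fell by 0.36. PDK4, the kinase that inhibits the complex, was not called at 0.78 (SE 0.33, adjusted p = 0.118). Of the 13 genes tested on pyruvate oxidation and its carriers 6 fell and 0 rose, against 10.1% and 3.34% of all genes. With spike-in centring 3 of the 13 were called lower and 2 higher.

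The cholesterol pathway had 7 genes that fell and 0 that rose of 19 tested, against 10.1% and 3.34% of all genes. Their median was -0.27. MSMO1, a sterol demethylation enzyme, ran from 4.71 through 5.03 to 5.31 in LF pigs and from 4.14 through 4.45 to 5.23 in HF pigs. Of 12 HF pigs 9 were below every LF pig, and MSMO1 fell by 0.49 (SE 0.14, adjusted p = 0.0221). MVK, SQLE, LSS and IDI1 fell by 0.72, 0.60, 0.44 and 0.40. With spike-in centring 1 of the 19 was called.

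Among the genes that handle ready-made fatty acids, some were called higher and some lower. Of 19 genes of triglyceride synthesis and the lipid droplet, 15 had a negative difference, and the median was -0.18. PCK1 and LPIN3 rose while GPAM, AGPAT3 and CIDEA fell, against 3.34% and 10.1% of all genes. LPIN3, a phosphatidate phosphatase, rose by 0.34 (SE 0.09, adjusted p = 0.0168) on 1 of its 3 probes. GPAM, the first acyltransferase of glycerolipid synthesis, fell by 0.27 (SE 0.08, adjusted p = 0.0199), and CIDEA, a lipid droplet protein, by 0.43 (SE 0.14, adjusted p = 0.038). DGAT1 (-0.14), DGAT2 (-0.23) and PLIN1 (-0.09) did not pass the test. None of the 3 falls was called with spike-in centring.

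Of 13 genes of fatty acid uptake and lipolysis, 1 rose and MGLL and FABP4 fell, against 3.34% and 10.1% of all genes. MGLL, the monoglyceride lipase, fell by 0.38 (SE 0.13, adjusted p = 0.0472), a call lost with quantile, normexp and spike-in scaling. FABP4, the fatty acid carrier of adipocytes, fell by 0.15 (SE 0.05, adjusted p = 0.0488) with array median centring, but its difference was 0.00875 with spike-in centring and 0.0052 with quantile normalization. Of the 8 FABP4 probes 3 were called lower. LPL (-0.16), CD36 (-0.04), PNPLA2 (0.02) and LIPE (-0.20) were not called. Of 21 genes of fatty acid oxidation, 15 had a negative difference, and 4 fell and 1 rose, against 10.1% and 3.34% of all genes. EHHADH fell by 0.34 (SE 0.08, adjusted p = 0.00965), ECI2 by 0.36, CPT2 by 0.29 (SE 0.07, adjusted p = 0.0125) and ETFA by 0.27 (SE 0.09, adjusted p = 0.0406), whereas CPT1B, the muscle form of the carnitine acyltransferase, rose by 0.25 (SE 0.08, adjusted p = 0.0438). The list medians of uptake (-0.04) and oxidation (-0.11) turned positive with spike-in centring (0.11 and 0.05), and that of uptake also with quantile normalization (0.0052).

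LEP, which encodes the satiety hormone leptin, ran from 4.06 through 4.99 to 5.57 in LF pigs and from 3.54 through 4.05 to 4.91 in HF pigs. All 12 HF pigs were below the LF mean and the groups overlapped. LEP fell by 0.89 (SE 0.21, adjusted p = 0.00521), or 1.85-fold, and all 4 of its probes, of 2 sequences, fell. ADIPOQ, adiponectin, ran from 9.53 through 10.2 to 10.4 in LF pigs and from 9.96 through 10.3 to 10.5 in HF pigs. It was not called, at 0.07 (SE 0.07, adjusted p = 0.57). ADIPOR2 fell by 0.32 (SE 0.07, adjusted p = 0.00415), NAMPT by 0.44 (SE 0.12, adjusted p = 0.0149) and ADIPOR1 by 0.16, and CFD, the adipokine adipsin, rose by 0.25 (SE 0.08, adjusted p = 0.0471).

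Among 23 transcription factors of adipocyte metabolism, SIRT1 rose and PPARD and MLXIPL fell, so 3 of 23 were called against 13.4% of all genes. MLXIPL, the glucose-sensing factor ChREBP, ran from 3.60 through 4.12 to 4.92 in LF pigs and from 2.73 through 3.53 to 4.06 in HF pigs. All 12 HF pigs were below the LF mean and MLXIPL fell by 0.63 (SE 0.18, adjusted p = 0.0198), a call lost with spike-in centring. SREBF1 ran from 5.74 through 6.26 to 6.77 in LF pigs and from 5.61 through 6.13 to 6.48 in HF pigs, and was not called at -0.14 (SE 0.11, adjusted p = 0.421). PPARG, the master factor of adipocyte differentiation, was not called at -0.15 (SE 0.10, adjusted p = 0.317), and all 4 SREBF1 and 5 PPARG probes missed the thresholds. PPARD fell by 0.69 (SE 0.18, adjusted p = 0.0125) on the brightest of 4 probes, and the others lay between -0.25 and -0.09, with 1 of them called. SIRT1, a deacetylase that senses NAD, rose by 0.42 (SE 0.10, adjusted p = 0.00521) on 1 of its 2 probes.

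Of the insulin and IGF signalling list 20 of 22 genes were not called, among them INSR (0.12), IRS1 (0.19) and AKT2 (-0.0047). Over all genes 13.4% were called. GSK3B, the kinase that restrains glycogen synthase, fell by 0.41 (SE 0.07, adjusted p = 0.000459), and IGFBP1 rose by 0.15 (SE 0.05, adjusted p = 0.049). The other IGFBP1 probe gave -0.08 and was not called, and the rise was not called with the processed signal scaled on its 75th percentile. Of 13 glycogen genes, UGP2 alone was called, with a fall of 0.19 (SE 0.06, adjusted p = 0.0494) that was not called with quantile, normexp or spike-in scaling. With each of these 3 scalings 0 glycogen genes were called lower and 2 higher. Of 15 clock genes, NR1D2 rose by 0.43 (SE 0.14, adjusted p = 0.0435) and NFIL3 fell by 0.47 (SE 0.16, adjusted p = 0.0504).

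The proteasome, which degrades proteins tagged with ubiquitin, had small falls in many subunits. Of 30 subunits tested all had a negative difference, and the median was -0.19. Of them 14 fell and 0 rose, against 10.1% and 3.34% of all genes. PSMA1, of the core ring, ran from 5.29 through 5.46 to 5.70 in LF pigs and from 4.97 through 5.17 to 5.53 in HF pigs, a fall of 0.29 (SE 0.07, adjusted p = 0.00521). PSMD6 and PSMD8, of the regulatory cap, each fell by 0.28 (SE 0.06, adjusted p = 0.00521), and PSMD14, the deubiquitinase of the cap, fell by 0.42 (SE 0.11, adjusted p = 0.0101). The size of these falls was close to the shift between scalings. With quantile normalization 11 subunits were called lower, and with spike-in centring 0.

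Among 25 genes of the unfolded protein and heat shock responses, 6 fell and HERPUD1 rose, against 10.1% and 3.34% of all genes. DNAJB1, a partner of HSP70, fell by 0.67 (SE 0.19, adjusted p = 0.0192) on 1 of 5 probes, with the other 4 between -0.48 and -0.43. ATF4, a stress-induced transcription factor, fell by 0.38 (SE 0.09, adjusted p = 0.00655) and HSPD1, the mitochondrial chaperonin, by 0.28 (SE 0.08, adjusted p = 0.018). HSPH1, HSPB1 and HSPE1 fell by 0.75, 0.52 and 0.34. HERPUD1, of endoplasmic reticulum-associated degradation, rose by 0.50 (SE 0.15, adjusted p = 0.0306). None of these 6 falls was called with spike-in centring.

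**Figure D3:**
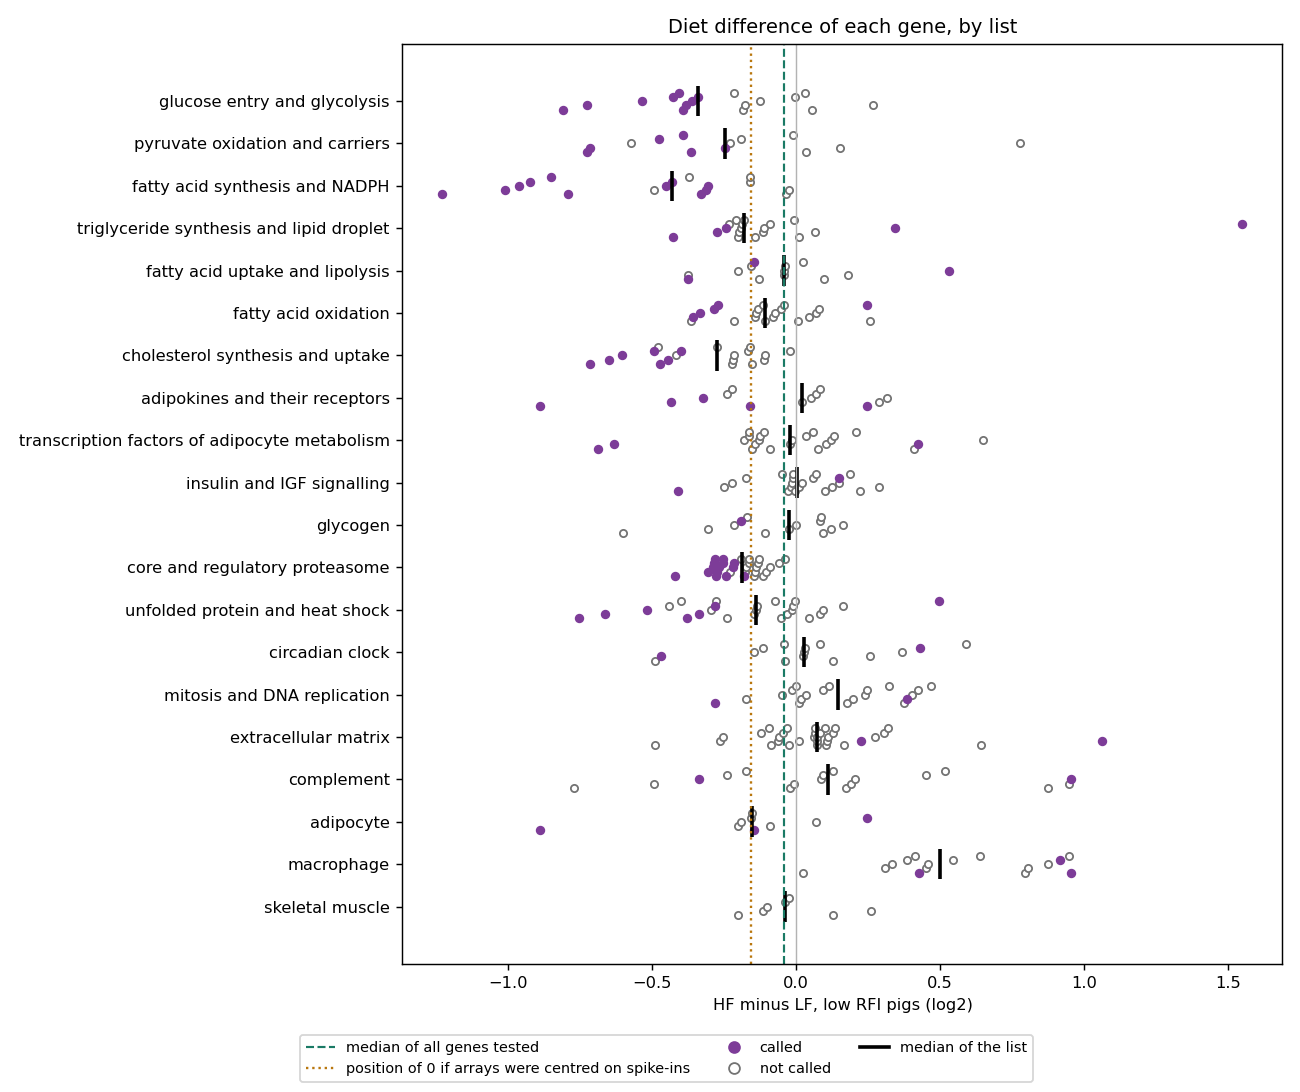
Each point is the HF minus LF difference (log2) of 1 gene in low RFI pigs, by list, filled where called, with a bar at the median of the list and a dashed line at the median over all genes (-0.04). Lists of glucose use, fatty acid synthesis, cholesterol and the proteasome lie left of both; the dotted line marks where 0 would lie with spike-in centring, and the proteasome median (-0.19) is close to it.

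Markers of macrophages lay to the other side. Of 16 tested, C1QC, VSIG4 and LAPTM5 rose and 0 fell, against 3.34% and 10.1% of all genes. Their median was 0.50 over the 16. C1QC, a chain of complement C1q, ran from 1.47 through 2.74 to 4.86 in LF pigs and from 2.08 through 3.91 to 5.21 in HF pigs. The groups overlapped almost over their whole range, and C1QC rose by 0.95 (SE 0.35, adjusted p = 0.0705), a call lost when the scan day was a block and in 4 other settings. VSIG4, a complement receptor of resident macrophages, rose by 0.92 (SE 0.33, adjusted p = 0.0627) and LAPTM5 by 0.43 (SE 0.12, adjusted p = 0.0166). The scavenger receptor CD163 was not called at 0.81 (SE 0.34, adjusted p = 0.115). The summed level of the 16 markers lay between 115 and 604 in HF pigs (median 309) and between 97.4 and 482 in LF pigs (median 160). More members were called with other scalings, 7 with the 75th percentile of the median signal, 8 with quantile normalization and 11 with spike-in centring.

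Other cell types were measured beside these, and over all genes 3.34% rose and 10.1% fell. Of 11 T and NK cell markers CD3G and NKG7 rose by 0.39 and 0.40, and 0 of 6 B cell, 9 endothelial, 9 fibroblast and 4 mesothelial markers were called. Of 4 brown fat markers tested CIDEA fell, their median was -0.20, and the mean log2 level of the 4 was below the LF mean in all 12 HF pigs. Of 4 erythrocyte markers SLC4A1 fell by 0.36 (SE 0.10, adjusted p = 0.0149). Of 32 extracellular matrix genes POSTN rose and COL4A2 rose by 0.23 (SE 0.08, adjusted p = 0.0731), while COL1A1 (0.07) and COL3A1 (0.07) were not called. Of 20 genes of mitosis and DNA replication MCM2 rose by 0.39 (SE 0.13, adjusted p = 0.0546) and MKI67 fell by 0.28 (SE 0.07, adjusted p = 0.0123). In the complement list C1QC rose and CD59, an inhibitor of the membrane attack complex, fell by 0.34 (SE 0.11, adjusted p = 0.0375). The part of cell makeup in the differences of other genes was not tested.

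The diet response of the low RFI line was then set against that of the high RFI line, whose 24 pigs were other animals on the same slides. In the high RFI line 1690 genes were called (15.6%), of which 274 rose (2.53%) and 1416 fell (13.1%), and 29.5% of genes had a raw p under 0.05 and 15.8% one under 0.01. Of the 1453 genes called in low RFI pigs 98.3% had the same sign in high RFI pigs, against 79.4% over all genes. Of them 857 were called in the same direction in both lines, which is 59.0% of the low RFI calls and 50.7% of the high RFI calls. Among genes that fell in low RFI pigs 67.8% were called lower in high RFI pigs, and among those that rose 32.3% were called higher. For the genes with the largest falls the difference was similar in size. PTGDS fell by 2.76 (SE 0.45) in high RFI pigs, SULT2A1 by 2.18 (SE 0.37), LCN2 by 1.78 (SE 0.34), ME1 by 1.26 (SE 0.28) and LEP by 0.99 (SE 0.21). Of the 8 largest rises, 2 were called in high RFI pigs, PCK1 at 1.90 (SE 0.50) and SPEF2 at 0.97 (SE 0.19). The other 6 were not called there, with differences of 1.06 for CLDN4, 0.73 for CYP27A1, 0.67 for POSTN, 0.67 for C1QC, 0.48 for RBP5 and 0.43 for TRIM63.

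**Figure D4:**
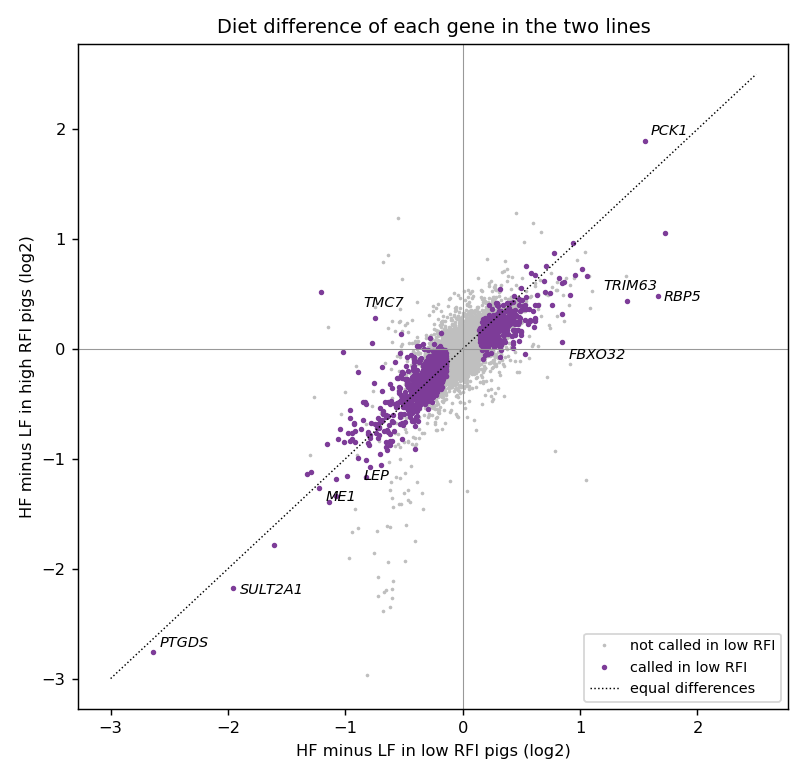
Each point is 1 gene, with its HF minus LF difference (log2) in low RFI pigs across and in high RFI pigs upward, purple where called in the low RFI line, and a dotted line of equal differences. PTGDS, SULT2A1, ME1, LEP and PCK1 lie near that line, whereas TRIM63 (1.40 against 0.43) and TMC7 (-0.74 against 0.28) lie off it.

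Whether a difference belonged to the low RFI line was tested with the interaction of diet and line in the same limma fit. At the thresholds 0 of 43355 probes were called (0%), and 132 (0.304%) had a raw interaction p under 0.01 and 995 (2.3%) a raw p under 0.05. Of 10828 genes 0 were called, 38 (0.351%) had a raw interaction p under 0.01 and 227 (2.1%) one under 0.05. These shares of probes and genes are below those that each threshold would pass with no interaction at all. The ANOVA of the study's methods also called 0, with 128 probes at a raw p under 0.01. No gene can therefore be called particular to the low RFI line from these arrays. Among the genes called in low RFI pigs, those of smallest interaction p were C20orf111, SUB1, TRIM63 and TMC7, in that order.

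TRIM63 and FBXO32 encode the muscle RING-finger 1 and atrogin-1 ubiquitin ligases, known for protein loss in wasting muscle, and FBXO32 was singled out after its values were seen. TRIM63 ran from -1.26 through -1.03 to -0.13 in low RFI LF pigs and from -0.31 through 0.39 to 1.06 in low RFI HF pigs. A single HF pig lay within the LF range and the other 11 were above every LF pig. TRIM63 rose by 1.40 (SE 0.20, adjusted p = 1.99e-05), or 2.63-fold, with its 1 probe well above background on all 12 HF arrays and 11 LF arrays. In high RFI pigs TRIM63 ran from -1.89 through -1.11 to 0.0044 with LF and from -1.60 through -0.94 to 0.45 with HF, a difference of 0.43 (SE 0.20, adjusted p = 0.132). Most HF pigs of that line stayed in the LF range, and there the probe was well above background on 11 HF and 8 LF arrays. The diet differences of the lines differed by 0.96 (SE 0.28, raw interaction p = 0.00118, not called).

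FBXO32 ran from 1.91 through 2.63 to 3.20 in low RFI LF pigs and from 2.996 through 3.34 to 4.40 in low RFI HF pigs. The groups overlapped narrowly, 9 HF pigs were above every LF pig, and the rise was 0.85 (SE 0.18, adjusted p = 0.00354). In high RFI pigs the difference was 0.06 (SE 0.18, adjusted p = 0.862), and the raw interaction p was 0.00379. All 5 FBXO32 sequences rose in low RFI pigs, by 0.49 to 0.85, and gave -0.06 to 0.06 in high RFI pigs. The sequence printed above rose by 0.72 (SE 0.16) and gave -0.06 (SE 0.16). Both ligases are abundant in skeletal muscle, and of 7 muscle markers tested 0 were called, against 13.4% of all genes. For so few markers this count is near that share. Of these 7, 5 were well above background on all 48 arrays. Any part of muscle tissue in the 2 rises was not tested. The summed level of those markers lay between 69.5 and 122 in HF pigs and between 77.2 and 113 in LF pigs of the low RFI line. MYH2, MYH4 and MB were not above background on enough arrays to be tested.

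Other genes also had a small raw interaction p, and their interactions were not called. TMC7, a transmembrane channel-like protein, fell by 0.74 (SE 0.22, adjusted p = 0.0221) in low RFI pigs and was at 0.28 (SE 0.22) in high RFI pigs. TMC7 fell by 1.34 within the first scan day and by 0.14 within the second, and was not called with spike-in centring. C20orf111 and SUB1 fell by 0.28 (SE 0.06) and 0.18 (SE 0.06) in low RFI pigs and were higher by 0.10 and 0.14 under HF in high RFI pigs, where neither was called, at levels below the array median and on 42 and 44 arrays above background. Neither was called with spike-in centring, and SUB1 was not called under any of the 5 other scalings.

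**Figure D5:**
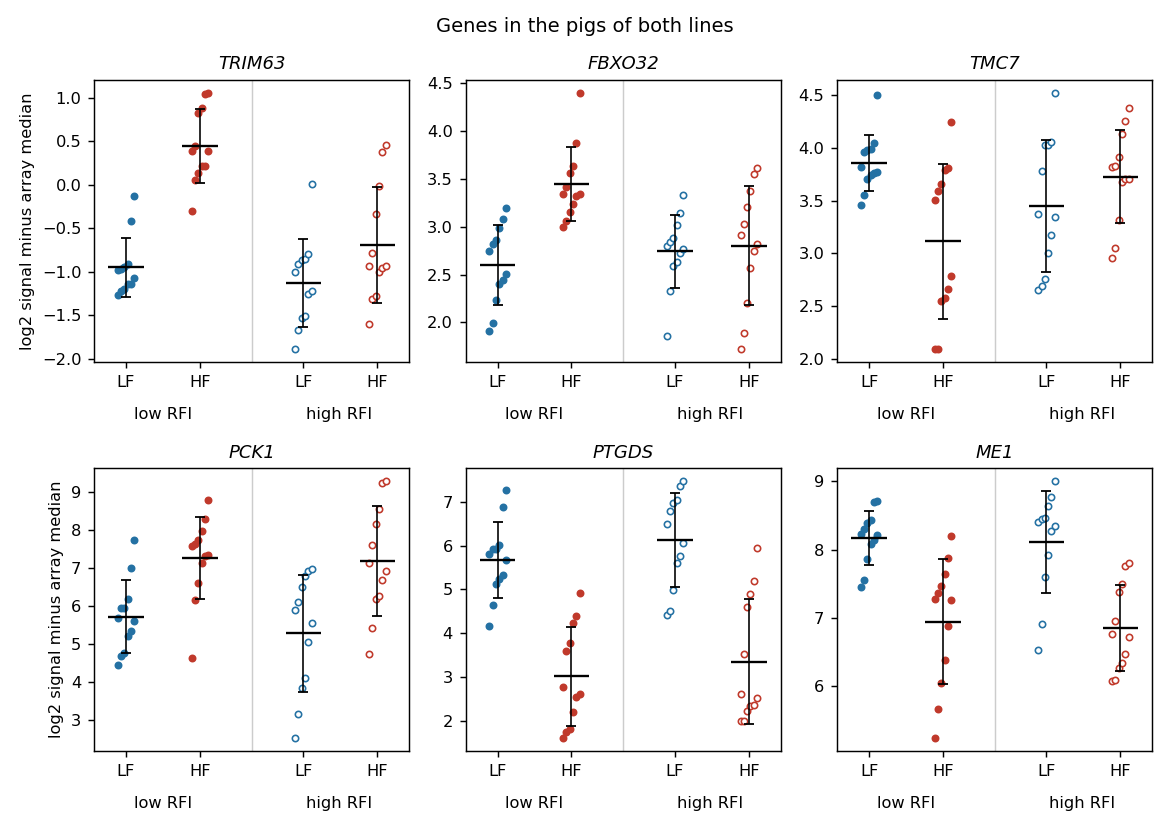
Each panel plots 1 gene as log2 signal minus the array median in LF (blue) and HF (red) pigs of the low RFI line (filled) and the high RFI line (open), 12 pigs a group, with the mean and 1 SD. TRIM63 and FBXO32 were called higher and TMC7 lower in HF pigs of the low RFI line, and none of them in the high RFI line. PCK1, PTGDS and ME1 were called in both lines. In every panel the diets overlap in both lines, and no interaction was called.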

How the data were processed

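Spot intensity values were made by the authors with Agilent Feature Extraction 10.7.3.1 after Cy3 labelling and were deposited as scanner files. The deposited log2 table was made by the authors in R 2.10.0 by filtering spots and centring each array on its median. Its 38142 rows each matched 1 spot of the scanner files within 1e-06, but only 2 row names matched that spot, so it served only to find the probes that were kept. The genome build is not given in the sources used here, and no coordinates are printed.

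Here log2 of the median intensity minus the array median over 60305 probes was used without background subtraction. The limma package (version 3.58.1, R 4.3.3) fitted 4 group means, with moderated variances, to the 43355 probes well above background on at least 24 of 48 arrays. This left 10828 named genes, each on its brightest probe. Of all probes, 21481 were named by symbol, 3292 by accession and 623 by synonym through the reference tables, 1424 kept the name in the file and 33485 have no name. Tested on simulated data for the low RFI comparison, the fit called 31.3% of 67 probes changed by 0.3, 91.0% of 67 changed by 0.6 and 97.0% of 66 changed by 1 (log2), with 7 unchanged of 43355 probes called. Only 200 probes were changed in the simulation, whereas 12.6% were called in the data. The BH threshold depends on that share, so these percentages do not carry over to the data. Plots used Python 3.11.15 and matplotlib 3.10.9.

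The comparison, the gene lists and the markers were chosen with earlier results of these data known. Named genes were the 8 largest rises and falls among called genes, up to 3 called genes of smallest raw p in each list, the 5 called genes of smallest interaction p, and LEP, ADIPOQ, PPARG, SREBF1, MLXIPL, FASN and SCD. Other genes given with values are list members, and some genes and probes that these rules named are not reported here. Alternatives were other scalings, filters, thresholds, models and probe choices. Subcutaneous fat was not analysed here.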

Additional observations from a re-analysis of the deposited data

How the results depend on the processing

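Results were recomputed under 17 other settings of scaling, filter, model or threshold and within each scan day. Spike-in centring called 8542 probes (8184 higher, 358 lower) and, of genes, 1676 higher and 102 lower. Requiring a fold over 1.5 left 431 probes (154 higher, 277 lower) and 117 genes (29 higher, 88 lower). Genes called higher numbered 574 with quantile normalization and 567 with normexp and quantile normalization. Probes at a raw interaction p under 0.01 numbered 212 with no filter and 261 with the replicate number as a block, against 132. The other counts of calls over all probes or genes stayed within 1.5 times those reported, and the interaction had 0 calls in every setting where it was fitted. Replicate numbers were shared by the groups. The correlation of same-numbered pigs ran from -0.19 to 0.53 with a median of 0.17, and was over 0.1 in 8 of 12 pairs. The median was 0.078 for other numbers on the same slide and -0.039 for pigs on other slides. Of 12 HF pigs 6 correlated best with their own number. Same-numbered pigs were thus more alike than others. What the numbers stand for was not tested, and the main fit did not pair them. With the replicate number as a block 6733 probes and 1796 genes were called.

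Of 65 named genes, FABP4 lost its call with spike-in centring, quantile normalization and normexp. Besides FABP4, 28 lost their call with spike-in centring, 5 with quantile normalization and 6 with normexp. With the replicate block 5 of the 65 lost their call, and with the low RFI arrays alone 4. FABP4 turned to 0.0052 (quantile), 0.0061 (normexp) and 0.0088 (spike-in), and ADIPOQ to -0.046 within the first scan day. Some list medians near 0 changed sign. Fatty acid uptake became 0.0052 (quantile), 0.0061 (normexp) and 0.11 (spike-in). With spike-in centring oxidation became 0.048, transcription factors 0.13, glycogen 0.13 and unfolded protein 0.015. Adipokines became -0.16 with probes above background on all 48 arrays, -0.055 with the authors' kept probes and -0.046 within the first scan day. Insulin signalling became -0.0047 with the authors' kept probes, transcription factors 0.023 within the second scan day and clock genes -0.027 within the first. The causes were not tested, and the number of arrays limits what can be seen.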
